A study of Mus musculus with 9 samples.

Results

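Replication-dependent histone genes were followed across 9 RNA sequencing libraries of mouse cells. They were taken by name: every gene of the Lewis lung carcinoma (LLC) table called H1f1 to H1f5, or H2ac, H2bc, H3c or H4c with a number, and the same gene IDs in the macrophage table. The rule found 55 of the 21936 genes in the LLC table, all of them also among the 22060 genes of the macrophage table. They comprised 5 linker histone H1 genes and 14 H2A, 14 H2B, 12 H3 and 10 H4 genes, with 45 on chromosome 13 and 10 on chromosome 3. A further 8 genes with older histone symbols fell outside the rule.

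LLC is a mouse lung carcinoma cell line, and BMDM are macrophages grown from bone marrow, all of strain C57BL. Of the 9 groups, 5 were LLC cells: untreated cells and cells kept for 24 h in medium that GM-BMDM or M-BMDM had conditioned for 16 h, the macrophages having first had no tunicamycin (unstressed medium) or 12 h of it followed by washing (stressed medium). The other 4 were GM-BMDM and M-BMDM, untreated or after 4 h of tunicamycin, an inhibitor of N-glycosylation that causes endoplasmic reticulum stress. GM-BMDM and M-BMDM are the names the labels give the 2 kinds of macrophage, called GM and M macrophages below, and the medium of the untreated LLC cells is not given in the sources used here. Total RNA was taken with Trizol, and the labels do not say how mRNA was selected from it. Each group held 1 library, so no comparison of 2 libraries has a replicate check and none carries a p-value.

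Replication-dependent histone mRNAs are made while DNA is copied, so that new chromatin can be packed as the cell passes through S phase. Most of them end in a short stem-loop instead of a poly(A) tail, and the stem-loop binding protein (SLBP) recognises that structure for processing, translation and decay. Histones H2A, H2B, H3 and H4 form the nucleosome core, and H1 binds the linker DNA between nucleosomes. Some of these genes can also give a polyadenylated mRNA from a signal further downstream, which is known from cells that have stopped dividing.

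The 3′ stem-loop is shown first because it is the feature that sets these mRNAs apart. In the GENCODE M21 transcripts of GRCm38, the pattern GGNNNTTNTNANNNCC, a 6-base stem around a 4-base loop read on the transcript's strand with at most 1 unpaired position in the stem (G and T counted as a pair), was found after the coding sequence of 37 of the 55 genes: 3 H1, 8 H2A, 8 H2B, 9 H3 and 9 H4 genes. The letters occurred anywhere in a transcript of 446 of 21901 protein-coding genes (2.04%). Each version is printed 5′ to 3′ as DNA, with the stem in capitals and the loop in lower case.
H1f2, H2ac4, H3c2, H3c4 and 17 others: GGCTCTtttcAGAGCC
H2bc3, H2bc12, H3c3, H3c6 and H3c7: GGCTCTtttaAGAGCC
H4c3, H4c4, H4c6 and H4c8: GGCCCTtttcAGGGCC
H4c9 and H4c14: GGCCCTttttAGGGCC
H4c2 and H4c11: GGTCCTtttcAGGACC
H4c1: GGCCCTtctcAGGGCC
H3c8: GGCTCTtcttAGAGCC
H2ac20: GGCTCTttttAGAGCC
The stem of all 9 H4 genes with a match differed from the one shared by H1, H2A, H2B and H3 genes, while most loops were the same. Of the 18 genes without a match, 14 had under 30 annotated bases after the coding sequence and 12 had an annotated transcript that ended at the stop codon, so the letters could not be read there. H2bc4 and H2bc21 had no match but carried AATAAA, the letters of the poly(A) signal, after the coding sequence. In all, 12 of the 55 genes carried these letters there.

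Promoters of 3 chromosome 13 genes are shown because the classes carry different motifs. In addition, most genes compared in this cluster were higher in untreated GM than in untreated M macrophages (described below). The sequences are the 250 bases before the annotated start from RefSeq (GRCm38.p6), 5′ to 3′ on the gene's strand, with the TATA box TATAAA, the box CCAAT and the octamer ATTTGCAT in capitals on either strand. H2ac4 is at chr13:23750838-23751087 on the plus strand, H3c8 at chr13:23535168-23535417 on the plus strand and H4c4 at chr13:23581318-23581567 on the plus strand.
H2ac4: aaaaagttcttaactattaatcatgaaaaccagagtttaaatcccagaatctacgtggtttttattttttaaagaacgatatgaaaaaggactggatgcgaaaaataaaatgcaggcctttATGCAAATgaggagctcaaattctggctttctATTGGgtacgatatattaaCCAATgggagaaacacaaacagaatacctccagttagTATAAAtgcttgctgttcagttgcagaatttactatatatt
H3c8: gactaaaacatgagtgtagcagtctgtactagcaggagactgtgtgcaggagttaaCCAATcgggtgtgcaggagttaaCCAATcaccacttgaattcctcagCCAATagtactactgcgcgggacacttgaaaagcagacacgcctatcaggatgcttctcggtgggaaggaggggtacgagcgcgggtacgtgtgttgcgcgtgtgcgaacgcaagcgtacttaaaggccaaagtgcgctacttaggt
H4c4: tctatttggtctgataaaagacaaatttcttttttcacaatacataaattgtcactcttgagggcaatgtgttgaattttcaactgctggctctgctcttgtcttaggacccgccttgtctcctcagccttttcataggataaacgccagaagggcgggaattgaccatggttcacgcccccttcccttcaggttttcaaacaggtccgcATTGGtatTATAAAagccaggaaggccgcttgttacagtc
Of the 55 genes, 50 matched the RefSeq table, with 51 windows of 300 bases (250 before the start and 50 after it). TATAAA stood in 58.8% of these windows against 13.6% of all 32851 windows, CCAAT in 88.2% against 37.4%, and ATTTGCAT in 25.5% against 1.74%. The octamer, the site of OCT-family factors first described in H2B promoters, was found in 6 of 14 H2A and 7 of 13 H2B windows and in none of the H1, H3 or H4 windows. CCAAT was found in every H1, H2A, H2B and H3 window and in 3 of 9 H4 windows.

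Members of a class are close copies of each other, which limits how well reads can be given to 1 gene. Translation of the annotated coding sequences gave 1 H4 protein for 10 genes, 3 H3 proteins for 12 genes, 8 H2A proteins for 14 genes, 9 H2B proteins for 14 genes and 5 H1 proteins for 5 genes. Among genes of equal coding length, the median pairwise identity of the coding sequence was 96.4% for H2A, 97.1% for H2B, 97.6% for H3 and 93.9% for H4. The median share of a gene's 50-base windows that also occurred in another gene was 2.3% in H1, 62.6% in H2A, 46.8% in H2B, 62.0% in H3 and 34.2% in H4. How reads that fit several copies were counted is not given in the sources used here, so H2A, H2B and H3 values of single genes are less certain than those of H1. In addition, 20 genes overlapped another annotated gene, 17 of them on the other strand; H2bc6 and H1f4 share positions on the same strand.

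The depth was 15020068 to 17128471 assigned reads in the LLC libraries and 37695079 to 42751176 in the macrophage libraries. A count of 0 allowed a share of up to 2e-05% of the reads in LLC and up to 7.96e-06% in macrophages, both counting error only. Macrophage markers were present in all 4 BMDM libraries, with a summed level over 10 genes of 32692 to 52151 CPM (reads scaled to a common library size within each table), against 12.9 to 24.1 CPM in LLC, where Ptprc, Adgre1, Tyrobp and Itgam were at 0 in all 5 libraries. The epithelial keratin Krt8 was at 320.3 to 494 CPM in LLC. The share of reads from 13 mitochondrial genes was 1.86% and 1.59% in the untreated and tunicamycin GM libraries, 0.899% and 0.861% in the M libraries and 2.20% to 2.37% in LLC.

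Histone mRNA was a small part of each library and differed most between LLC and macrophages. All members together took 0.173% of the reads in untreated GM macrophages and 0.206% with tunicamycin. They took 0.0633% in untreated M macrophages and 0.127% with tunicamycin. In LLC the share was 0.00469% in untreated cells, 0.00971% and 0.0087% in unstressed GM and M medium, and 0.00665% and 0.00645% in stressed GM and M medium. The highest LLC library lay below the lowest macrophage library. LLC and macrophage libraries were scaled separately and sequenced to different depths, so their levels are set side by side without a test. Genes of the S phase were not low in LLC: 22 DNA replication genes summed to 2082 to 3788 CPM there and to 456 to 1014 CPM in macrophages.

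**Figure D1:**
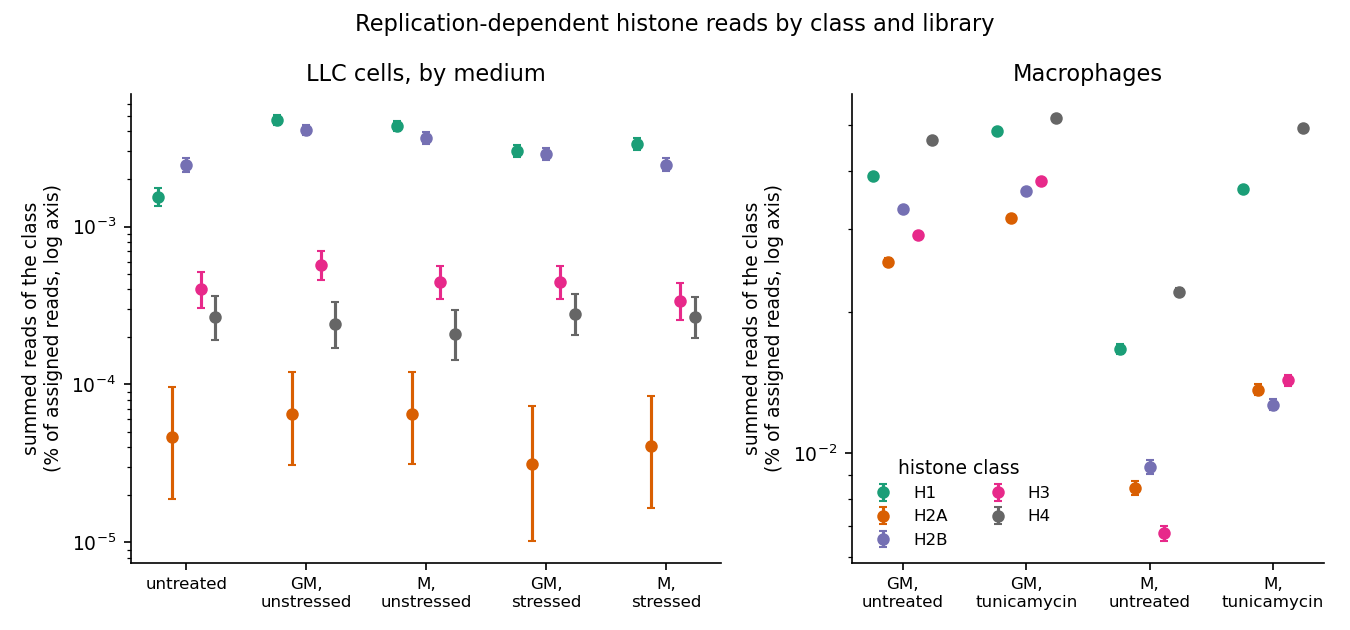
Share of assigned reads in percent (log axis) taken by each histone class in the 5 LLC libraries and the 4 macrophage libraries; points are summed counts of a class, bars are 95% binomial intervals for counting error. The panels have separate axes; H2A, H3 and H4 lie far below H1 and H2B in LLC, and in each macrophage library H4 is the highest class and H1 the next.

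The mix of classes differed between the LLC and macrophage libraries as well. Their counts were deposited in separate sets, so a difference of cell type cannot be told apart from one of library preparation. In LLC, H1 took 32.8% to 51.7% of the members' reads and H2B 38.2% to 52.1%, while H3 took 5.11% to 8.51%, H4 2.40% to 5.67% and H2A 0.469% to 0.993%. All 14 H2A genes together had only 5 to 10 reads in an LLC library. H1f2 alone held 43.3% of the members' reads in LLC, H2bc4 20.0% and H2bc21 16.3%. In macrophages no gene dominated: H4c4 held 11.3%, H1f2 10.7% and H1f4 5.4%. Per kilobase of gene length (RPKM), the core classes in untreated GM macrophages took similar shares of the members' summed level, 21.7% for H2A, 19.8% for H2B, 18.8% for H3 and 28.4% for H4, and H1 took 11.3%. In untreated M macrophages H4 took 38.8% of it, with 20.5% for H2A, 14.1% for H2B, 13.5% for H3 and 13% for H1. RPKM depends on how far the end of a gene is annotated. Deposited lengths ran from 312 bases (H4c12) to 7425 (H1f3), of which 312 and 666 are coding.

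A mean level of 1 CPM or more within a table was reached by 49 members in macrophages and by 7 in LLC. The 7 in LLC were H1f2, H1f3, H2bc4, H2bc6, H2bc8, H2bc21 and H3c4; of the other 48, 15 were at 0 in all 5 libraries, and 38 had at most 25 reads over the 5 libraries. In macrophages, 4 members were at 0 in all libraries. They were H2ac1 and H2bc1, which encode testis histones, and H2ac18 and H3c14, of whose 50-base windows 89.4% and 100% occurred in another gene. H2bc18 and H3c15 had reads but stayed below 1 CPM.

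Most histone reads in LLC came from genes with AATAAA after the coding sequence, mainly from H1f2, H2bc4 and H2bc21. Together H1f2, H2bc4 and H2bc21 held 79.6% of the members' reads in LLC. The rest of the 12 such genes had 0 (H3c14) to 193 (H2bc6) reads over all LLC libraries. The letters were searched for anywhere after the coding sequence, so their use as a poly(A) signal is not shown. The 12 genes with AATAAA after the coding sequence held 83.1% of the members' reads in untreated LLC and 87.8% to 89.0% in the 4 media. In macrophages the same 12 genes held 27.4% (GM, untreated), 28.1% (GM, tunicamycin), 33.1% (M, untreated) and 32.4% (M, tunicamycin). The 14 members of at least 1000 bases held 86.7% to 92.0% of the members' reads in LLC and 43.2% to 56.9% in macrophages. Across the 55 genes, deposited length and mean CPM had a Spearman rho of 0.56 in LLC and 0.33 in macrophages (Pearson 0.19 and 0.24). These are descriptions across genes that share libraries and sequence, with no test, and longer genes also collect more reads per molecule. Of 13 RNAs that carry no poly(A) tail, such as Rn7sk, Rmrp and Terc, none was listed in either table; 99.83% of the LLC gene IDs found in GENCODE and 99.75% of those for macrophages are annotated as protein-coding, so the tables do not show how much RNA without a tail was in the libraries.

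**Figure D2:**
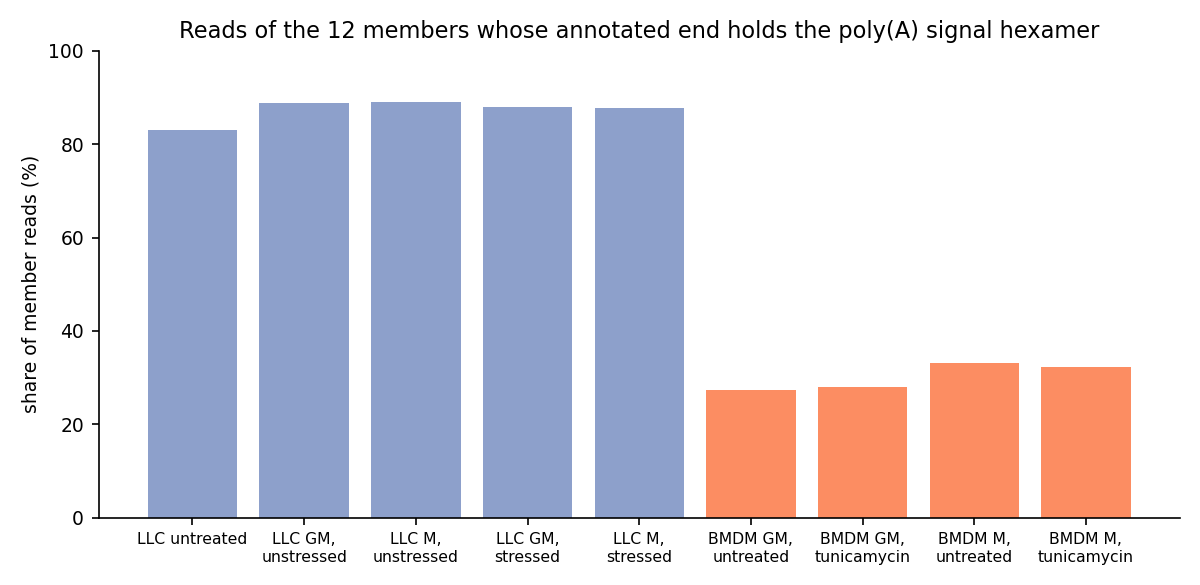
Percent of all members' reads that came from the 12 genes with AATAAA after the coding sequence, 1 bar per library. The 5 LLC bars lie between 83.1% and 89.0% and the 4 macrophage bars between 27.4% and 33.1%. H1f2, H2bc4 and H2bc21 are among the 12 genes and held 79.6% of the members' reads in LLC.

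Levels of single genes are compared per deposited length, so their order has the limit of annotated ends given above. Positions are those of GRCm38, equal in the deposited LLC table and in GENCODE M21 for all 55 genes. In macrophages the highest H4 gene was H4c4 (chr13:23581598-23582735, plus strand), at 170.1 RPKM in untreated GM, 167 in GM with tunicamycin, 72.0 in untreated M and 161 in M with tunicamycin. H4c4 was low only in untreated M macrophages. The highest H1 gene was H1f2 (chr13:23738808-23740367, plus strand), a linker histone, at 104, 118, 57.2 and 115 RPKM in the same order, so it too stood apart only in untreated M. H1f5, by contrast, was at 83.1 and 84.3 RPKM in GM and at 8.81 and 14.4 in M macrophages, high in both GM libraries. H2ac20 led H2A by mean level, at 92.9, 102, 69.3 and 89.0 RPKM, with little spread over the 4 libraries. H2ac15 reached 120.3 and 134 RPKM in GM and 21.5 and 47.8 in M. Among H2B genes H2bc4 (chr13:23684199-23692908, plus strand) was the highest in GM, at 83.1 and 86.6 RPKM, and was at 22.8 and 26.2 in M. H2bc8 was at 67.7 and 79.0 RPKM in GM and above H2bc4 in M, at 24.8 and 44.3. H3c3 (chr13:23744973-23745602, minus strand) was the highest H3 gene in GM macrophages, at 80.1 and 87.1 RPKM, and was at 4.56 and 7.94 in M. By mean level H3c11 led H3, at 57.6 and 75.6 RPKM in GM and 15.6 and 32.2 in M. In LLC the order was H1f2 (8.36 RPKM untreated, 28.2 and 25.1 in unstressed and 18.4 and 20.1 in stressed GM and M medium), H2bc4 (9.52, 17.5, 13.6, 11.8 and 10.2) and H2bc21 (3.77, 5.51, 5.91, 4.11 and 3.30). H2A genes had almost no reads there, and H4c12, the highest H4 gene, rested on 7 to 19 reads per library.

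Comparing GM with M macrophages asks whether the 2 kinds differ before and after stress. Untreated GM macrophages held more mRNA of nearly every replication-dependent histone gene than untreated M macrophages. The members summed to 1812 CPM (72936 reads) in GM and 640.0 CPM (23847 reads) in M, a ratio of 2.83 (95% interval 2.79 to 2.87, counting error only). The core histones of the H3 class differed most, at 305 against 68.2 CPM, a ratio of 4.47 (4.28 to 4.67). H2B followed with 3.67 (3.54 to 3.81) and H2A with 3.13 (3.01 to 3.26). H1 and H4 differed least, with ratios of 2.41 (2.34 to 2.48) and 2.18 (2.12 to 2.23). In bulk samples, fewer cells of a type and less RNA per cell cannot be told apart.

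By gene, 47 of the 49 members compared were above 0 in the difference of log2(CPM + 1), GM minus M, with a median of 1.73 against -0.03 over all genes. A difference of at least 1 was reached by 38 members upward and by none downward, where 12.4% of all 11049 genes were higher by this rule and 7.02% lower. By class these were 3 of 5 H1, 9 of 12 H2A, 11 of 12 H2B, 9 of 10 H3 and 6 of 10 H4 genes. H3c3 differed most, at 50.5 CPM in GM and 2.87 in M, a log2 difference of 3.73 and a 17.6-fold ratio (14.5 to 21.6). H2ac10 was at 24.6 and 1.15 CPM, 21.3-fold (15.7 to 29.7), and H3c8, whose promoter is shown above, at 21.8 and 1.05 CPM, 20.8-fold (15.1 to 29.5). H3c2 was at 34.3 and 2.17 CPM, 15.8-fold (12.6 to 20.0). These 4 are core histone genes of chromosome 13, 3 of them H3. At the other end, H2bc21 was at 6.53 CPM in GM and 11.9 in M, a difference of -0.77, and H4c9 at 4.15 and 4.64 CPM, a difference of -0.13. H1f2, H1f4, H4c3 and H4c8, which are among the most read members, differed by 0.86, 0.93, 0.60 and 0.56.

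**Figure D3:**
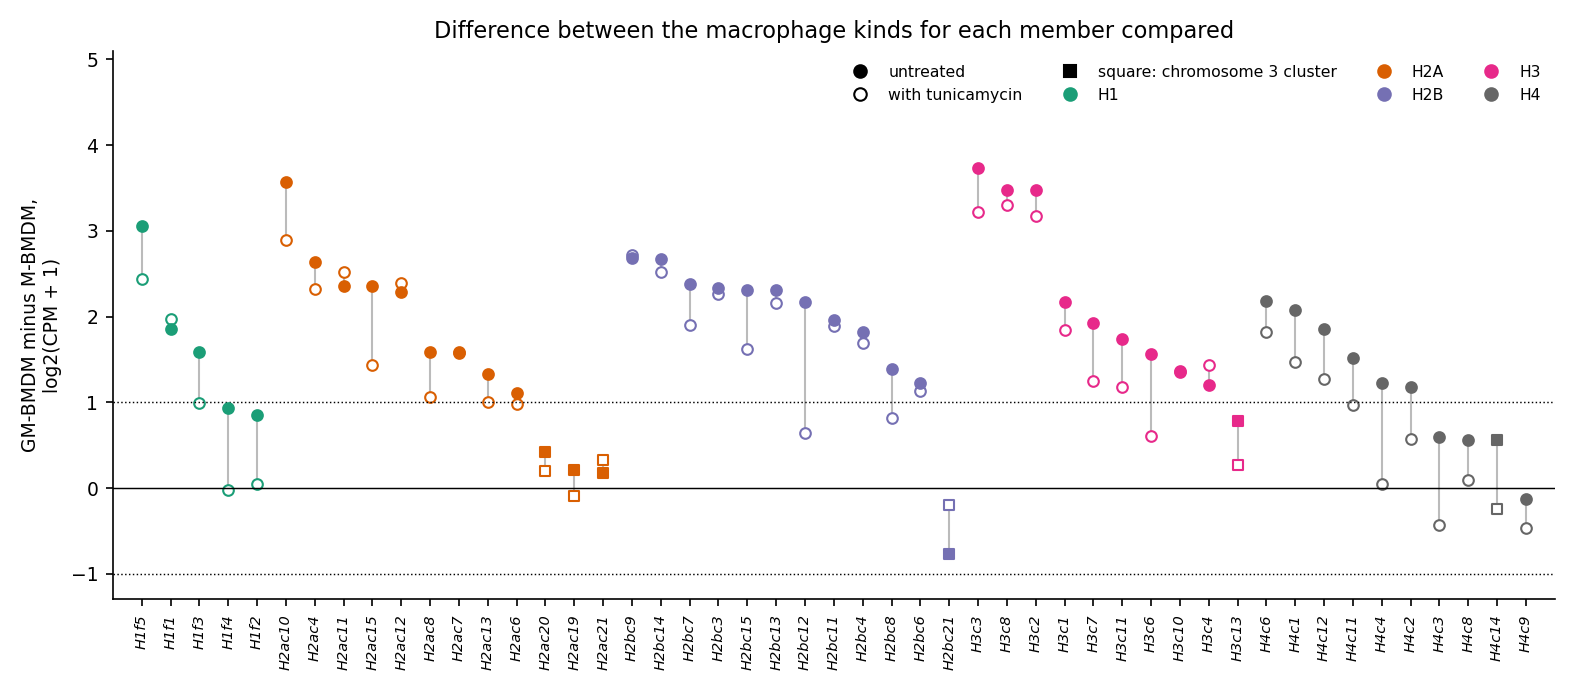
Difference of log2(CPM + 1), GM minus M macrophages, for each of the 49 members with a mean of at least 1 CPM; filled symbols are untreated and open symbols tunicamycin libraries, squares are chromosome 3 genes, colours are the 5 classes and dotted lines mark 1 and -1. In untreated cells 38 members lie at or above 1 and none at or below -1, and the chromosome 3 genes lie between -0.77 and 0.78.

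Position went along with this difference. All 38 members past the threshold lay on chromosome 13, where 43 were compared with a median of 1.86. None of the 6 chromosome 3 members compared reached it, and their median was 0.31. H3c13, an H3 gene of chromosome 3, was at 23.8 CPM in GM and 13.4 in M, and H2ac20, also there, at 48.3 and 36.0 CPM. The 2 clusters were not tested against each other, since 4 libraries cannot separate position from the identity of 6 genes. Head-to-head H2A and H2B genes share 1 promoter region of 175 to 305 bases in these 9 pairs. Both genes were higher in untreated GM in 7 of the 8 pairs compared, the 7 being those on chromosome 13. Every H2A and H2B gene compared on chromosome 13 was higher, paired or not, so this count does not bear on the pairing. The 2 log2 differences of a pair lay a median of 0.56 apart, and unpaired genes were not set beside this gap. H2ac15 and H2bc15 differed by 2.35 and 2.31, H2ac8 and H2bc8 by 1.59 and 1.39, and the chromosome 3 pair H2ac20 and H2bc21 by 0.41 and -0.77.

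The difference was found both among close copies and among more distinct genes. Among members with under 50% of their 50-base windows in another gene, 19 of 28 were higher in untreated GM with a median of 1.45, and among the rest 19 of 21 with a median of 2.17. Members with AATAAA after the coding sequence were higher in 8 of 11 cases and those without in 30 of 38. Of those that overlapped no other annotated gene, 27 of 33 were higher.

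With tunicamycin the GM macrophages still held more histone mRNA, by a smaller margin. The members summed to 2079 CPM in GM and 1187 in M, a ratio of 1.75 (1.73 to 1.77). The ratio was 3.06 for H2B, 2.85 for H3, 2.50 for H2A, 1.42 for H1 and 1.13 (1.11 to 1.15) for H4. By gene 29 of 49 members were higher by at least 1 and 0 were lower, where 12.6% of all genes were higher and 7.82% lower, with a median of 1.27. H3c8 differed most, at 30.1 CPM in GM and 2.16 in M, 14-fold (11.3 to 17.5), followed by H3c3 (54.9 and 5 CPM), H2ac10 (25.3 and 2.54 CPM) and H3c2 (41.6 and 3.74 CPM). The same 4 genes led in untreated cells. H1f2 was at 184 and 179 CPM, and 6 members lay below 0: H4c9 (-0.47), H4c3 (-0.43), H4c14 (-0.24), H2bc21 (-0.20), H2ac19 (-0.09) and H1f4 (-0.02).

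An edgeR quasi-likelihood fit of kind plus tunicamycin over the 4 macrophage libraries, which leaves 1 residual degree of freedom, tested the kinds over both treatments. GM was higher in 38 of 49 members and lower in 0 at an adjusted p below 0.05, beside 26.3% of all genes higher and 24.4% lower; a Wald test in DESeq2 called 39 members. All 10 H3 genes compared were higher, with 11 of 12 H2B, 9 of 12 H2A, 3 of 5 H1 and 5 of 10 H4 genes. H3c8 had the largest fold change, log2 4.06 (SE 0.19, adjusted p 4.6e-06, edgeR). H2ac10 followed at 3.80 (SE 0.26, adjusted p 2.3e-05, edgeR), then H3c3 at 3.79 (SE 0.20, adjusted p 6.7e-06, edgeR) and H3c2 at 3.72 (SE 0.18, adjusted p 4.6e-06, edgeR). The 11 members that did not pass were H1f2, H1f4, H2ac19, H2ac20, H2ac21, H2bc21, H4c3, H4c4, H4c8, H4c9 and H4c14. H1f2 was at a log2 fold change of 0.47 with an adjusted p of 0.081 and H4c4 at 0.66 with an adjusted p of 0.066 in edgeR. Without a filter on low counts edgeR also called H4c4 higher, with an adjusted p of 0.015, and H2bc21 lower, with 0.025.

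The linker histone genes can be read most safely, since at most 32.0% of the 50-base windows of any of them (H1f4) occurred in another gene. H1f5 was at 61.7 and 62.6 CPM in GM (untreated and tunicamycin) and at 6.55 and 10.7 in M, with a log2 fold change between kinds of 2.90 (SE 0.19, adjusted p 2e-05, edgeR). H1f1 was at 33.1 and 58.1 CPM in GM and at 8.43 and 14.1 in M, with both GM libraries above both M libraries. H1f3 was at 67.5 and 91.6 CPM in GM and at 21.8 and 45.7 in M, again without overlap. H1f1 and H1f3 passed the fit between kinds as well. H1f4 was at 82.7 and 92.4 CPM in GM and at 42.9 and 93.8 in M, so that its GM and M libraries overlapped, as did those of H1f2 (162 and 184 CPM in GM, 89.3 and 179 in M). H1f2 and H1f4 did not pass the fit, but without a filter on low counts edgeR called both higher in GM, with adjusted p-values of 0.036 for H1f2 and 0.049 for H1f4. DESeq2 called H1f2 higher, with an adjusted p of 0.042, and not H1f4, with 0.062.

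Other genes of the histone pathway are given by lists. Genes that transcribe, process or degrade histone mRNA did not move as a set. In the same fit 5 of 20 were higher in GM and 3 lower, with a median of -0.03. Over all genes 26.3% were higher and 24.4% lower. Slbp, which encodes the stem-loop binding protein, was at 63.7 and 63.3 CPM in GM (untreated and tunicamycin) and at 66.2 and 63.8 in M. Npat, the coactivator of histone gene transcription, was at 50.1 and 44.8 CPM in GM and 49.9 and 55.5 in M, and Casp8ap2, a partner of the histone locus body, at 74.2 and 74.5 CPM in GM and 74.2 and 81.8 in M. None of these 3 passed the fit. The 5 that were higher were Ccne1, Ccne2 and Cdk2, the cyclin E kinase that activates NPAT, with Zfp473 and Ncbp1. Ccne2 was at 22.4 and 20.0 CPM in GM and at 1.31 and 1.49 in M, with a log2 fold change of 3.92 (SE 0.18, adjusted p 4.1e-06, edgeR).

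Genes of DNA replication and of mitosis went with the histone genes. Of 22 replication genes 20 were higher in GM and 0 lower in the fit, with a median log2 fold change of 1.34, and all 15 mitosis genes were higher, with a median of 3.18. Rrm2, a subunit of ribonucleotide reductase, was at 39.3 and 37.4 CPM in GM and 2.15 and 2.54 in M. Of 16 histone chaperones 6 were higher and 1 lower, with a median of 0.21, beside 26.3% of all genes higher and 24.4% lower. The higher ones included the CAF-1 subunits Chaf1a and Chaf1b and Asf1b. Chaf1a was at 22.3 and 18.8 CPM in GM and 4.88 and 4.01 in M. Of 9 replacement or variant histones compared, 4 were higher and 1 lower, beside the same shares of all genes, with a median of 0.15. H2ax, the variant of the DNA damage response, was at 44.6 and 45.5 CPM in GM and 8.29 and 9.62 in M. H1f0, the replacement linker histone, went the other way, at 37.4 and 51.0 CPM in GM and 63.3 and 106 in M, with a log2 fold change of -0.89 (SE 0.13, adjusted p 0.001, edgeR).

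Markers of other cell types also differed between the kinds. The 10 neutrophil markers summed to 1679 and 1607 CPM in GM, where none was at 0, and to 50.3 and 31.7 CPM in M, where 1 was at 0 in each library. Mmp8, a neutrophil collagenase, made up most of it, at 1459 and 1485 CPM in GM, and all 5 markers compared were higher in GM. The 14 markers of other cells summed to 135.5 and 104.1 CPM in GM and to 2.63 and 2.68 CPM in M. Among them Siglecf, known from eosinophils and alveolar macrophages, was at 93.9 and 73.5 CPM and Kit at 35.6 and 25.5 CPM in GM, and both were below 1 CPM in M. Of 10 macrophage markers 1 was higher in GM and 5 lower, beside 26.3% and 24.4% of all genes. Csf1r was at 1002 and 945 CPM in GM and 5517 and 4742 in M. The mitochondrial share differed between the kinds as well, as given above. The part of other cells or of the mitochondrial share in the histone difference was not tested.

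Tunicamycin for 4 h in M macrophages went with more mRNA of many histone genes. The members summed to 640.0 CPM in untreated M and 1187 with tunicamycin, a ratio of 1.86 (1.83 to 1.88). H4 and H1 differed most, with ratios of 2.07 (2.02 to 2.13) and 2.03 (1.97 to 2.09), followed by H3 with 1.97 (1.88 to 2.06) and H2A with 1.504 (1.44 to 1.57). H2B differed least, with 1.26 (1.21 to 1.32). By gene 47 of 49 members were above 0, with a median of 0.63 against 0.00 over all genes. A difference of at least 1 was reached by 7 members, where 1.18% of all genes were higher, and by 0 downward, where 0.29% were lower.

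These 7 were H4c14, H3c6, H4c4, H4c3, H1f4, H2ac15 and H1f3, from 4 of the 5 classes. H4c14, an H4 gene of chromosome 3 with both a stem-loop and AATAAA, was at 24.3 CPM untreated and 64.6 with tunicamycin, 2.66-fold (2.47 to 2.87). H3c6 was at 14.7 and 35.4 CPM, 2.40-fold (2.17 to 2.65), and H4c4 at 81.9 and 184 CPM, 2.24-fold (2.15 to 2.34). H4c3 was at 42.1 and 92.9 CPM, 2.20-fold (2.08 to 2.34). H2bc21 and H2ac21, both on chromosome 3, lay below 0 at -0.49 and -0.18. Of the linker genes, H1f2 was at 89.3 and 179 CPM, 2.002-fold (1.92 to 2.09), and just missed it. No H2B gene reached the threshold. Scaling to total reads moved the log2 ratio of the members' sum by 0.11 in this comparison, and 11 members then reached the threshold.

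In GM macrophages the same treatment went with smaller differences. The members summed to 1812 CPM untreated and 2079 with tunicamycin, a ratio of 1.15 (1.14 to 1.16), with class ratios from 1.05 (H2B) to 1.26 (H3). By gene 43 of 49 were above 0, with a median of 0.19; 1 member was higher by at least 1 and 0 lower, where 0.0634% of all genes were higher and 0.443% lower. The 1 member was H3c4, at 9.74 CPM untreated and 21.2 with tunicamycin, 2.18-fold (1.93 to 2.46). H2bc12 was nearly as far in the other direction, at 14.5 and 7.38 CPM, a ratio of 0.510 (0.443 to 0.586). H1f1 was at 33.1 and 58.1 CPM and H3c10 at 15.5 and 25.8 CPM. The response in M exceeded that in GM in 41 of 49 members. The median of the M minus GM response over all 49 was 0.36 in log2, against 0.0016 over all genes. The excess was at least 1 in 3 members, H2bc12, H4c4 and H4c3, and in 152 of all 11049 genes. The untreated M library enters this and the comparison of kinds, so the values are not independent of each other, and the difference of the responses was not tested.

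**Figure D4:**
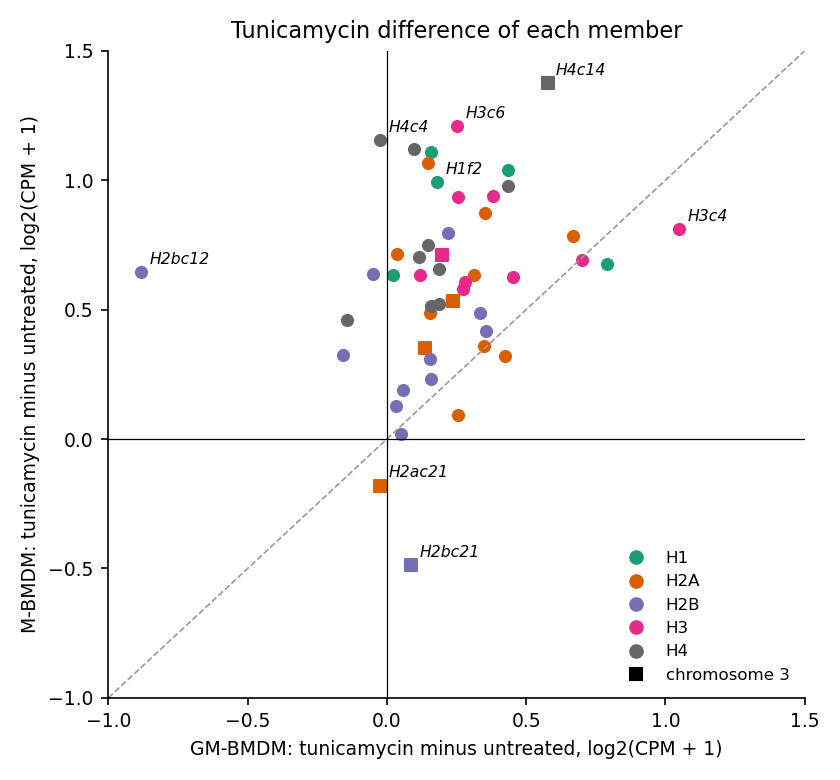
Difference of log2(CPM + 1), tunicamycin minus untreated, in GM (x axis) and M macrophages (y axis) for the 49 members compared; colours are the 5 classes and the dashed line marks equal values. Of the 49 points 41 lie above the line, and H3c4 alone reaches 1 in GM whereas 7 genes reach it in M.

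The additive fit called 0 members for tunicamycin, and 0% of all genes in either direction, with edgeR at an adjusted p below 0.05. At an unadjusted p below 0.05 it held 27 members of 1137 genes, and DESeq2 called 3 members of 52 genes: H1f1, H3c4 and H4c14. The lowest adjusted p among the members was 0.21 (edgeR), for H3c4 at a log2 fold change of 1.05 (SE 0.15). In this fit 46 of 49 members lay above 0, with a median log2 fold change of 0.46. The difference between the responses of the 2 kinds is part of the error of this fit.

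Replication genes did not go with the members here, and mitosis genes did so only in part and only in M macrophages. Over tunicamycin in M macrophages the 22 replication genes had a median of 0.00, with 11 above 0. Their sum was 497 CPM untreated and 456 with tunicamycin. The 15 mitosis genes had a median of 0.11 there, with 9 above 0 and a sum of 182 and 263 CPM. In GM macrophages the medians of the 2 lists were -0.19 and -0.13, with 1 and 0 genes above 0. The replication sum was 1014 and 892 CPM in GM, and the mitosis sum 1241 and 1082 CPM. Slbp differed by -0.05 in M and -0.01 in GM. H1f0 was higher with tunicamycin in both kinds, by 0.44 in GM and 0.73 in M, but the fit called no gene, H1f0 included. Neutrophil markers had a median of -0.73 in GM and 0.11 in M. Macrophage markers had a median of -0.35 in M, with 9 of 10 below 0, and their sum was 52151 CPM untreated and 32692 with tunicamycin. In GM their median was -0.10, with 9 of 10 below 0, and their sum 40210 and 37953 CPM. The fit called no gene for tunicamycin, so that none of these markers passed says nothing about them. Their part in the histone values was not tested.

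In LLC cells the study asks whether medium of stressed macrophages changes tumour cells. LLC cells in macrophage medium held more H1f2 mRNA than untreated cells, and 1 other member, H2bc4, also rose in the fit. H1f2 was at 13 CPM (198 reads) in untreated cells, 44.1 in unstressed GM medium, 39.2 in unstressed M medium, 28.8 in stressed GM medium and 31.3 in stressed M medium. All 4 media lay above untreated cells and both unstressed media above both stressed ones. The ratios to untreated cells were 3.38 (2.88 to 3.98), 3.01 (2.56 to 3.55), 2.21 (1.86 to 2.62) and 2.40 (2.03 to 2.84). H1f2 was the 1 of 7 compared members that was higher by at least 1 in each medium, where 1.04%, 0.5%, 1.48% and 1.22% of all 11190 genes were higher. None was lower, where 1.93%, 1.4%, 2.4% and 2.14% of all genes were.

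**Figure D5:**
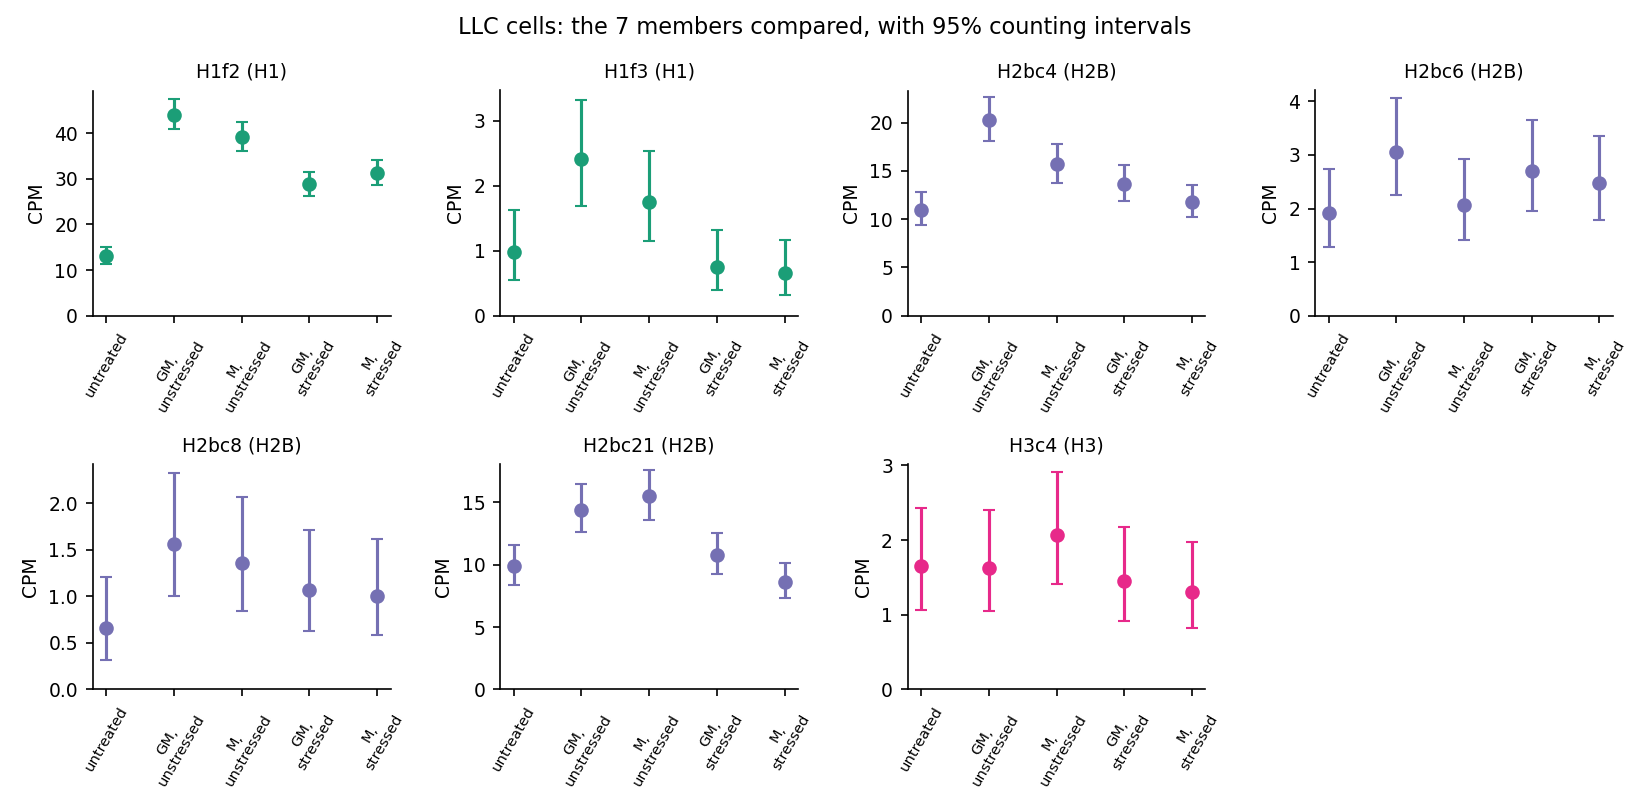
Level in CPM of the 7 members with a mean of at least 1 CPM in the 5 LLC libraries, with 95% intervals for counting error. H1f2 rises from 13 CPM in untreated cells to 28.8 to 44.1 CPM in the 4 media, and both stressed media lie below both unstressed ones.

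The H2B genes differed less. H2bc4 was at 11 CPM in untreated cells, 20.3 and 15.7 in unstressed GM and M medium and 13.7 and 11.8 in stressed GM and M medium. Its ratio to untreated cells was 1.84 (1.52 to 2.24) and 1.43 (1.17 to 1.75) in the unstressed media, and the interval in stressed M medium, 0.871 to 1.33, included 1. H2bc21 (chr3:96221119-96223738, plus strand) was at 9.88, 14.4, 15.5, 10.8 and 8.63 CPM in the same order. Its ratio to untreated cells was 1.46 (1.18 to 1.81) and 1.57 (1.27 to 1.93) in unstressed GM and M medium, and both intervals in stressed medium included 1. Summed over all 55 members, the ratio to untreated cells was 2.09 (1.91 to 2.29) in unstressed GM, 1.85 (1.69 to 2.03) in unstressed M, 1.45 (1.31 to 1.59) in stressed GM and 1.41 (1.28 to 1.55) in stressed M medium. Without H1f2 these 4 log2 ratios were 0.67, 0.48, 0.20 and 0.026, so H1f2 carried much of the sum.

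An edgeR fit of medium, kind of medium and stress over the 5 LLC libraries, with 1 residual degree of freedom, called 2 of 7 members higher and 0 lower for medium against none, beside 22.8% of all genes higher and 23.9% lower. H1f2 rose by log2 1.41 and H2bc4 by 0.43. DESeq2 called H1f2 alone and not H2bc4, and gave no adjusted p for H1f3, H2bc8 and H3c4. The untreated group held 1 library, which was fitted exactly, so it was assumed to vary like the media libraries. Every p-value of the edgeR fit for medium against none rests on that untested assumption. In that fit all 21 replication genes compared rose, with a median of 0.81, and 14 of 20 genes of histone mRNA transcription, processing and decay rose while 3 fell. Slbp was at 50.7 CPM untreated and 76.1 to 84.7 in the media, and rose by 0.62 (SE 0.08, adjusted p 3.5e-13, edgeR). Npat was at 54.3 CPM untreated and 56.0 to 65.7 in the media, and Casp8ap2 at 75.1 and 87.6 to 92.4. Of 16 chaperones 12 rose, and 7 of 9 variant histones did, H1f0 among them, at 227 CPM untreated and 304 to 478 in the media. The summed macrophage markers were at 24.1 CPM in untreated LLC and at 12.9 to 17.7 CPM in the media.

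Stressed medium went with less summed histone mRNA than unstressed medium of the same kind, mainly of the H1 and H2B classes. The ratio of the members' sum, stressed to unstressed, was 0.690 (0.637 to 0.747) for GM and 0.760 (0.701 to 0.824) for M medium. The H1 ratio was 0.639 (0.568 to 0.718) and 0.789 (0.705 to 0.884), and that of H2B 0.711 (0.629 to 0.803) and 0.693 (0.609 to 0.788). The H4 ratio was above 1 in both media, at 1.18 (0.746 to 1.87) and 1.32 (0.821 to 2.14), and both intervals included 1. H1f3, a linker histone gene with few reads, had 37 reads in unstressed and 12 in stressed GM medium, a ratio of 0.314 (0.149 to 0.616). In M medium it had 27 and 11 reads, a ratio of 0.373 (0.167 to 0.778). H1f2 had ratios of 0.653 (0.579 to 0.737) and 0.798 (0.709 to 0.898), and H2bc21 of 0.747 (0.608 to 0.915) and 0.558 (0.451 to 0.688). By log2(CPM + 1) no member of 7 reached a difference of 1, where 0.393% of all genes were higher and 0.125% lower for GM medium and 0.411% and 0.143% for M medium. All 7 lay below 0 for GM medium and 6 for M medium, H2bc6 being the exception. Below 1 CPM on average, H4c11 had more reads in stressed medium, 20 against 8 for GM and 19 against 4 for M medium, and H1f4 had 12 against 7 and 21 against 7; both were chosen after their values were seen.

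In the fit 4 of 7 members were lower in stressed medium and 0 higher, beside 10.9% of all genes lower and 12.9% higher. They were H1f2 at a log2 fold change of -0.47 (SE 0.10, adjusted p 2.8e-05, edgeR), H2bc21 at -0.63 (SE 0.15, adjusted p 0.00048, edgeR), H2bc4 at -0.49 (SE 0.14, adjusted p 0.003, edgeR) and H1f3 at -1.54 (SE 0.45, adjusted p 0.0042, edgeR). DESeq2 called 0 of them; it gave H1f2 an adjusted p of 0.14 and the other 3 none. H1f0, the replacement linker histone, also fell, by 0.55 on the log2 scale (SE 0.05, adjusted p 3e-23, edgeR). Replication genes did not go with them: 6 of 21 were higher and 0 lower, and of 15 mitosis genes 6 were lower and 0 higher. Of the markers of other cells all 4 compared, Col3a1, Pdgfra, Krt18 and Krt8, were lower in the fit, with a median of -0.49. That list summed to 2283 CPM in unstressed and 1461 in stressed GM medium, and to 2058 and 1457 CPM in M medium, and its part in the histone values was not tested.

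GM and M medium gave no member a difference of 1 in LLC cells. In unstressed medium 0.125% of all genes were higher and 0.0626% lower, and in stressed medium 0.206% and 0.0536%. The ratio of the members' sum, GM to M medium, was 1.13 (1.05 to 1.22) unstressed and 1.03 (0.944 to 1.12) stressed. DESeq2 gave none of the 7 members an adjusted p for this contrast, so it could call none. The edgeR fit called 0 of 7 members, beside 2.23% of all genes higher and 2.58% lower, with 1 at an unadjusted p below 0.05. That 1 was H2bc4, at 20.3 against 15.7 CPM unstressed and 13.7 against 11.8 stressed, with a log2 fold change of 0.29 (SE 0.14, adjusted p 0.3, edgeR).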

How the data were processed

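The deposited tables, 1 for LLC and another for BMDM, give a read count and a length for each gene, and all counts were whole numbers (0 exceptions). The FPKM values deposited beside them, per the file headers, equalled values recomputed from count, length and total to 5.0e-07 (LLC) and 4.9e-06 (BMDM) and served no other purpose. Cutadapt 1.15, HISAT2 and TopHat2 2.1.0 appear in the submitters' processing notes, which assign them no step. The counting program, whether it used strand, and the build are not given in the sources used here. A line-end character in the last quoted LLC cell was stripped. Treatment hours were read from the labels and the design text.

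CPM and RPKM were computed here, within each table, from library sizes scaled by TMM in edgeR 4.0.16 (R 4.3.3). TMM and total reads put the log2 ratio of the members' sum 0.11 apart for tunicamycin in M macrophages. For GM minus M with tunicamycin they put it 0.10 apart. A mean level of 1 CPM or more was required (11190 genes in LLC, 11049 in BMDM). The 12 comparisons of 2 libraries (4 BMDM, 8 LLC) use log2(CPM + 1), which understates changes of low genes, with a call at a difference of 1. Ratios have no pseudocount and exact Clopper-Pearson intervals at 95%; these and the floor of 3 counts cover counting error only, since the reads carry no molecular identifiers in the tables. The additive fits, tested by quasi-likelihood in edgeR and adjusted after Benjamini-Hochberg over all genes at 0.05, had kind and tunicamycin (BMDM), or medium, its kind and its stress (LLC), and 1 residual degree of freedom. They measure the spread left over by the additive model, which may be technical, and not that between replicates. In the LLC fit only the media libraries left any such spread, and the untreated library was assumed to vary like them. The fitted coefficient of variation was 4.23% for LLC and 11.5% for BMDM, and the LLC spread was taken wholly from the trend over genes. On simulated counts the LLC fit recovered 93% and 99% of genes changed by log2 1 and 2 for medium against none (11190 genes), and the BMDM fit 95% and 100% for kind (11049 genes). These counts were drawn with the spread that the fit itself had estimated, and the other contrasts were not simulated. The recovery therefore does not check the p-values on the real counts.

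The members and gene lists were chosen with earlier results of these data known, so no list is independent support. Genes to name were drawn from the 3 members per class of highest mean RPKM per table and the 4 members of largest absolute difference per comparison. Members that passed a fit, up to 4 genes per list of largest difference, and Slbp, Npat, Casp8ap2 and H2ax were added. Not every gene of these groups is named. Others, such as members with small differences, H1f0 and the head-to-head pairs, were chosen after their values were seen. Transcripts and coding sequences came from GENCODE M21 and promoters from RefSeq (GRCm38.p6), read with biopython 1.88; a head-to-head pair is an H2A and an H2B gene on opposite strands with starts at most 400 bases apart. Alternatives were DESeq2 1.42.0 (size factors and Wald test), total reads, no filter, a pseudocount of 0.1 CPM, members of identical protein summed, and the member of most reads left out.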

Additional observations from a re-analysis of the deposited data

Results flagged for a closer look

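For 5 members the difference went opposite ways in the 2 settings, with both 95% counting intervals clear of 1, and with 1 library per group the gap between the settings was not tested. With tunicamycin, H2bc12 had a ratio to untreated cells of 0.510 (0.443 to 0.586) in GM and 1.80 (1.39 to 2.33) in M macrophages. The same ratios were 0.894 (0.822 to 0.971) and 1.30 (1.07 to 1.59) for H2bc7, and 0.902 (0.836 to 0.974) and 1.43 (1.22 to 1.66) for H4c1. The GM to M ratio of H4c3 was 1.52 (1.43 to 1.62) untreated and 0.740 (0.705 to 0.777) with tunicamycin. For H4c14 it was 1.49 (1.37 to 1.62) untreated and 0.844 (0.798 to 0.892) with tunicamycin. Intervals cover counting error only, and comparisons that share a library are not independent.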

How the results depend on the processing

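No paired analysis was possible because each group held 1 library, and for the same reason no replicate could be left out. Of 60 ratios of single classes, 17 moved beyond their counting interval by total reads and 18 without the member of most reads, and 1 reversed. With members of identical protein summed (22 features, by GENCODE translations, chosen after seeing the data in place of the RefSeq protein table, which was not run), 16 were higher for GM minus M untreated, 13 with tunicamycin, and 0 (GM) and 4 (M) with tunicamycin against untreated; fewer features entered. The log2 ratio of all members, GM minus M untreated, was 1.501, and 1.45 by total reads and 1.54 without the member of most reads; with tunicamycin it was 0.81, and 0.83 by DESeq2 size factors, 0.71 by total reads and 0.91 without that member. For tunicamycin against untreated it was 0.20 in GM (0.25 by total reads, 0.22 without the member) and 0.89 in M (1 and 0.85). Without H1f2, LLC log2 ratios of all members to untreated cells fell from 1.07 to 0.67 (unstressed GM) and from 0.89 to 0.48 (unstressed M). In stressed medium they fell from 0.53 to 0.20 (GM) and from 0.49 to 0.026 (M). The log2 ratio of H1 in stressed GM medium to untreated cells reversed from 1 to -0.47. The other H1 genes had only 0 to 12 reads each in that library and 2 to 15 in untreated cells. For GM minus M medium stressed, the log2 ratio of all members went from 0.04 to 0.17. Members higher with tunicamycin in M macrophages numbered 11 by total reads and 12 with a pseudocount of 0.1 CPM against 7; that pseudocount gave 3 higher in unstressed GM medium and 1 lower in stressed medium of each kind. In the fits, 1 member was lower in GM by total reads and 1 without a filter, which was H2bc21; without a filter H1f2, H1f4 and H4c4 were also called higher in GM, and H1f2 by DESeq2; for tunicamycin 3 were higher by DESeq2 and 6 without a filter against 0; for medium in LLC 1 by DESeq2 against 2; and for stressed medium 0 were lower by DESeq2 against 4, where DESeq2 gave an adjusted p (0.14) to H1f2 alone. The cause of these shifts was not tested. Depth limits LLC most, where 38 members had at most 25 reads in all.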
